A study of Homo sapiens with 3 samples.

Results

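The zinc finger genes of chromosome 19 were described in human neurons by ATAC-seq, an assay in which the transposase Tn5 cuts accessible DNA and adds sequencing adapters. A gene was a member if the RefSeq GRCh38.p14 table lists it as protein-coding on chromosome 19 with a symbol made of ZNF, digits and optional letters. This rule gave 246 genes of the 1451 coding genes of the chromosome and of 20033 coding genes on the main chromosomes. The neurons were made from the NGN2 form (KOLF2.1J-hNGN2) of KOLF2.1J, a widely used line of human pluripotent stem cells made by reprogramming, and were collected after 14 days of differentiation. NGN2 is a neurogenic transcription factor. The 3 biological replicates are the only group, with no other genotype, treatment or time, and all come from this single line. The authors combined them into 1 peak list, so no value per replicate was analysed here and no spread between replicates can be given. Genes are not replicates, so no test was run across them. The title of the study concerns the regulation of MAPT, the gene for tau, and the values below are another view of the same list.

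Most of these genes encode C2H2 zinc finger proteins, in which a tandem array of fingers reads a DNA sequence. Many also carry a KRAB domain, which binds the corepressor TRIM28. TRIM28 in turn brings the histone methyltransferase SETDB1 and HP1 proteins to the bound site, and a main known task of this system is to silence transposable elements. The genes lie in tandem clusters that grew by duplication, and many of them are transcribed in a wide range of tissues.

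The list gives, for each accessible interval, its bounds, 1 or more summits and a fold enrichment. It held 145092 summit entries in 65234 distinct intervals, of which 1958 were on chromosome 19. A gene was counted as accessible at an end when a summit lay within 1 kb of either outer end of its annotation. Promoter sequences from RefSeq (GRCh38.p14), 250 bases before to 50 after a listed start, are printed here for 5 genes on which the results below turn. The capitals mark matches, on either strand, to short words described further on, which are CCAAT (bound by NF-Y), GGGCGG (bound by SP factors), CCGGAAGT (bound by ETS factors), the E-box word CAGATG, and 2 words of 12 letters, CTGTCACTCAGG and GTCCAATCAGGC. ZNF585A (chr19:37172387-37172686, minus strand) had the highest fold enrichment among genes with a listed start, and ZNF347 (chr19:53159004-53159303, minus strand) had the widest interval. ZNF91 (chr19:23395422-23395721, minus strand) encodes a repressor of SVA retrotransposons, and ZNF274 (chr19:58182811-58183110, plus strand) encodes a protein that recruits SETDB1 to other zinc finger genes. ZNF208 (chr19:22010894-22011193, minus strand) had no summit within 1 kb of an end or a listed start, and its promoter was closer to that of ZNF91 than to any other accessible zinc finger gene's.
ZNF585A: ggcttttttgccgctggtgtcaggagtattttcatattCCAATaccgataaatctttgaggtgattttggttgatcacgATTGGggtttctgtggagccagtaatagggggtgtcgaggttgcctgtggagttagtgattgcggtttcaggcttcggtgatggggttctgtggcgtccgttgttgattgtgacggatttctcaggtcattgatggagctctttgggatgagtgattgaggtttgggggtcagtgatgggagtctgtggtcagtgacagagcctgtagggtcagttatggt
ZNF347: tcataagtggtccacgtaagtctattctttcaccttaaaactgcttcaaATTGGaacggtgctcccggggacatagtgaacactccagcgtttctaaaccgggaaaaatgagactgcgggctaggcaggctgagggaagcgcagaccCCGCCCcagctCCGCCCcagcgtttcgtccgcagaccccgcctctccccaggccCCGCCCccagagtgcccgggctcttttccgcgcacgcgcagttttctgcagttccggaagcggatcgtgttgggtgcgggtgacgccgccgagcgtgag
ZNF91: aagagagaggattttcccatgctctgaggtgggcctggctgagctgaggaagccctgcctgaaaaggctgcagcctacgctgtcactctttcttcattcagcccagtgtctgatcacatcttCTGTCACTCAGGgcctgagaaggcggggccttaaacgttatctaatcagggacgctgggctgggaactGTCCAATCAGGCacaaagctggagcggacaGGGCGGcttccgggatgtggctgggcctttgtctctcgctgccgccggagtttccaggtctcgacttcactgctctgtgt
ZNF274: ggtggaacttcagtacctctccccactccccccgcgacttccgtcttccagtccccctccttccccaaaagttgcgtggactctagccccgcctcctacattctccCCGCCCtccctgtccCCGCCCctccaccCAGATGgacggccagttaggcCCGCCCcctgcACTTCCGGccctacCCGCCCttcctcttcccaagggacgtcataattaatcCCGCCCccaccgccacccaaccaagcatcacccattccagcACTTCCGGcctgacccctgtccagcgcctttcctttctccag
ZNF208: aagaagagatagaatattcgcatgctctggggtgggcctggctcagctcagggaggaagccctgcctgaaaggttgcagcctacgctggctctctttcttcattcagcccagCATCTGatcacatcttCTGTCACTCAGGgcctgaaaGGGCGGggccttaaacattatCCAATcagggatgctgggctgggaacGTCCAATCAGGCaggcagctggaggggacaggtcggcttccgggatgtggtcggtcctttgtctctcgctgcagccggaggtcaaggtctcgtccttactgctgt

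The zinc finger genes were accessible at an end in 205 of 246 cases, or 83.3% (Wilson 95% interval 78.2 to 87.5%). The background was 68.8% over all coding genes and 64.0% over all coding genes of chromosome 19. Of the other 1205 coding genes of chromosome 19, 724 had a summit at an end (60.1%, interval 57.3 to 62.8%). The difference was 23.3 percentage points, with an interval of 17.4 to 28.2 points by Newcombe's method. These intervals treat genes as separate, although neighbours can share an interval, and cover no error between replicates. ZNF-numbered genes of other chromosomes had a similar share, with 232 of 264 accessible at an end (87.9%, interval 83.4 to 91.3%). In a pooled list, a site open in more cells and a site more open in each cell cannot be told apart.

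The accessible end was in most cases the start of the gene. RefSeq promoters listed a start for 216 of the 246 genes. Among these the outer end on the start side had a summit in 182 (84.3%, interval 78.8 to 88.5%), and the far end in 7 (3.24%, interval 1.58 to 6.54%). For the other coding genes of the chromosome with a listed start, the far end had a summit in 144 of 969 (14.9%, interval 12.8 to 17.2%). Counting any listed start, including starts inside the annotated gene, 202 of 216 zinc finger genes had a summit within 1 kb (93.5%, interval 89.4 to 96.1%), against a background of 72.3% over all coding genes and 66.8% on chromosome 19. The same share was 60.8% (589 of 969) for the other genes of the chromosome. Both ends were accessible in 7 zinc finger genes (2.85%), with a background of 6.70% over all coding genes and 7.86% on chromosome 19. These were ZNF653, ZNF428, ZNF649, ZNF766, ZNF628, ZNF580 and ZNF324. The summit farther from its end lay between 100 bp away (ZNF580) and 963 bp away (ZNF649). ZNF-numbered genes of other chromosomes had similar shares. A summit lay at a listed start in 196 of 215 (91.2%), at the far end in 9 of 215 (4.19%) and at both ends in 7 of 264 (2.65%).

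The summits sat in a narrow band just before the start. The strongest summit of the end interval lay at a median offset of -50 bp from the listed start in zinc finger genes, where negative is upstream, with quartiles at -71 and -32 bp (n = 172 genes with the summit within 1 kb of a listed start). It was within 100 bp of the start in 149 of the 172 (86.6%, interval 80.7 to 90.9%). ZNF-numbered genes of other chromosomes were alike in this, with a median offset of -48 bp and 142 of 180 summits (78.9%, interval 72.4 to 84.2%) within 100 bp. For the other coding genes of the chromosome the median offset was -87 bp (quartiles -180 and -38 bp), and 242 of 509 summits (47.5%) were within 100 bp. The surroundings of the start were sparser than around other genes. From 1 to 5 kb upstream, 5.56% of the 216 zinc finger genes had a summit, against 14.6% of the 969 others. From 5 to 20 kb downstream the shares were 20.8% and 43.6%. Farther out they were closer, at 61.6% and 72.8% from 20 to 50 kb downstream and 71.3% and 71.8% from 20 to 50 kb upstream, with 1.06 and 1.39 intervals per gene in the latter class. ZNF-numbered genes of other chromosomes were also sparse near the start, with 6.51% from 1 to 5 kb upstream and 23.7% from 5 to 20 kb downstream (n = 215). All these shares include summits at ends of neighbouring genes. The other coding genes of chromosome 19 were shorter than its zinc finger genes (median 12.8 kb against 23.2 kb). The downstream classes can therefore reach past their far end. The part of gene length in these shares was not tested.

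**Figure D1:**
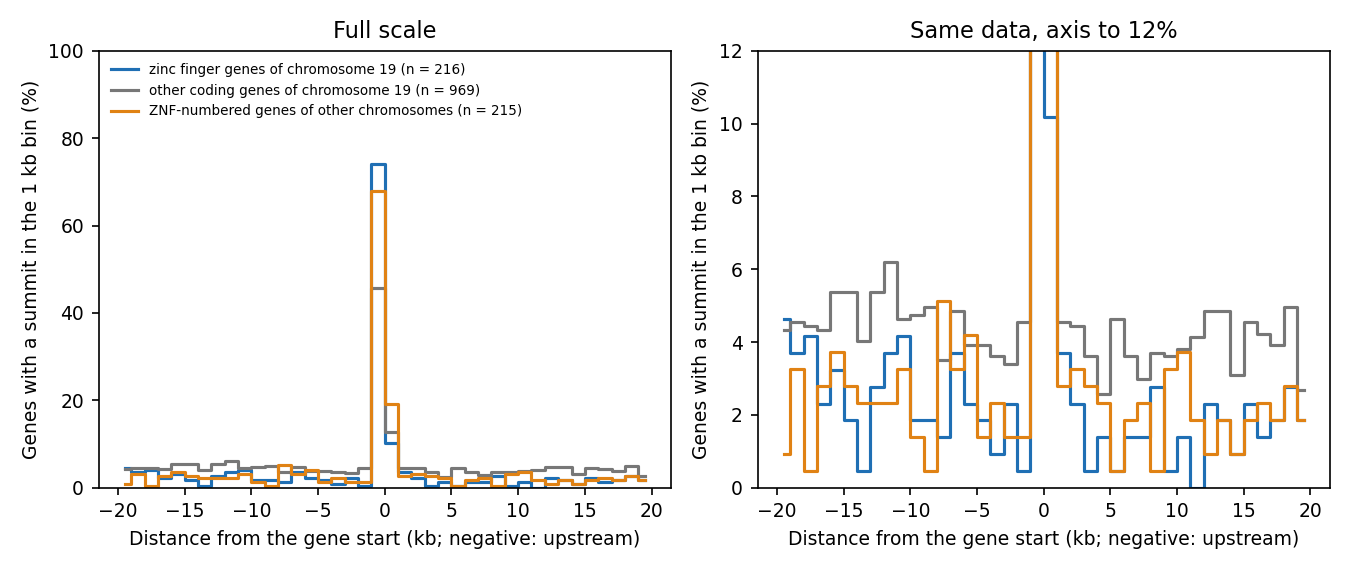
Share of genes (y axis, %) with a summit in each 1 kb bin of distance from the gene start (x axis, kb, negative is upstream), for zinc finger genes of chromosome 19 (blue, n = 216), other coding genes of chromosome 19 (grey, n = 969) and ZNF-numbered genes of other chromosomes (orange, n = 215). The left panel shows the full scale and the right panel the same data on a shorter axis; the blue line peaks at 74.1% in the first bin upstream, where the grey line reaches 45.8%.

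Intervals at zinc finger gene ends were close in width to those of other genes on the chromosome and had a higher fold enrichment. Their width had a median of 1157 bp (95% interval 1107 to 1213; quartiles 1031 and 1344; range 553 to 1901; n = 205), against 1152 bp (interval 1123 to 1182; n = 724) at other genes of the chromosome. Both were narrower than the medians of 1271.5 bp (interval 1227 to 1352; n = 232) at ZNF-numbered genes elsewhere and 1320 bp (interval 1314 to 1327; n = 13777) over all coding genes. Fold enrichment is the authors' linear ratio of tags at a summit to the local background. Its median was 14.5 (interval 14.1 to 15.1) at zinc finger genes and 10.5 (interval 10.2 to 10.9) at the other genes. A fold enrichment of at least 10 was reached by 177 of 205 zinc finger gene ends (86.3%) and by 396 of 724 others (54.7%). ZNF-numbered genes of other chromosomes lay in between, with a median of 12.4.

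The tag counts behind these ratios were recovered from the deposited fold and p-value. The summit held a median of 924 tags at zinc finger genes (range 168 to 2380) and 1019.5 at the other genes. The local background was a median of 61.4 tags at zinc finger genes and 95.4 at the others. Over all ends the zinc finger genes thus had the lower median background and no higher median of tags. Within classes of similar background, both the fold enrichment and the tags were compared. Below 50 background tags the median fold enrichment was 14.4 at zinc finger genes (605 summit tags, n = 64) and 5.57 at the others (240 tags, n = 102). From 50 to 75 tags it was 15.1 (949 tags, n = 83) and 10.2 (640 tags, n = 150). From 75 to 100 tags it was 14.5 (1270 tags, n = 33) and 12.1 (1007 tags, n = 138). From 100 tags upward it was 12.3 (1655 tags, n = 25) and 11.1 (1719 tags, n = 334). At similar background the zinc finger gene ends therefore had more summit tags in the 3 lower classes and fewer in the highest. The recovered background values matched a window of 10 kb, which can include tags of the interval itself and of its neighbours. Classes of similar background are thus not independent of the summit tags. Across the 205 zinc finger gene ends, fold enrichment had a Pearson correlation of 0.40 and a Spearman correlation of 0.43 with the tags, and of -0.15 and -0.01 with the background. These describe genes of 1 pooled list, and fold enrichment is itself computed from both quantities. Counting error of the pooled tags was 7.72% at the weakest zinc finger gene end, 3.29% at the median and 2.05% at the strongest. PCR copies are not independent molecules, so this covers counting error only.

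**Figure D2:**
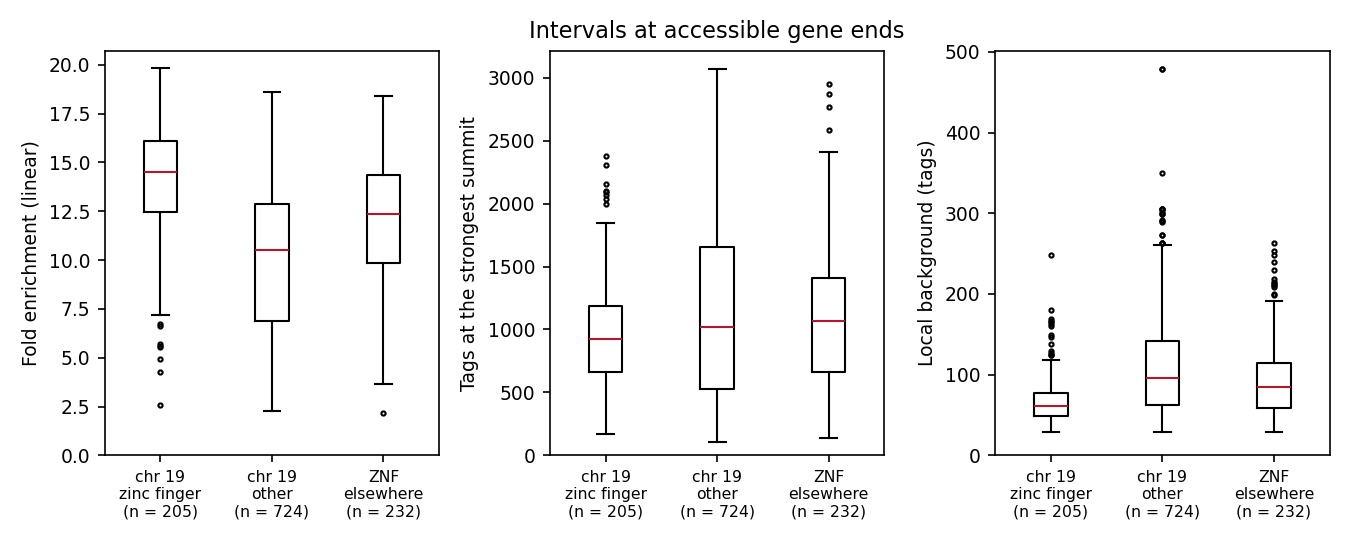
Fold enrichment (linear), tags at the strongest summit and local background in tags for the interval at an accessible gene end, in zinc finger genes of chromosome 19 (n = 205), other coding genes of chromosome 19 (n = 724) and ZNF-numbered genes elsewhere (n = 232). Boxes span the quartiles with the median in red, whiskers reach the last value inside the usual box-plot fences and points lie beyond; the zinc finger genes of chromosome 19 have the highest median fold of these 3 sets, 14.5, and the lowest median background, 61.4 tags.

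The strongest end intervals were spread over several clusters. ZNF223 had the highest fold enrichment, 19.8, from 1050 tags at chr19:44051289-44052357. ZNF585A followed with 19.8 from 979 tags at chr19:37172382-37173276, the interval over the promoter printed above. ZNF714 had 19.4, ZNF549 had 18.8, ZNF493 had 18.7, ZNF766 had 18.6, ZNF527 had 18.5 and ZNF155 had 18.3. Neighbours in this order differ by less than the counting error of about 3.29%, so the order is not resolved. The lowest values were 2.59 at ZNF536, 4.27 at ZNF580, 4.93 at ZNF875 and 5.52 at ZNF579. ZNF875 was low at its outer end alone: intervals at 2 listed starts inside the gene had fold enrichments of 17.2 and 17.4.

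The widest intervals belonged to ZNF347 (1901 bp), ZNF865 (1886 bp), ZNF524 (1876 bp), ZNF480 (1795 bp) and ZNF787 (1650 bp), the last of which also held the most tags, 2380. The narrowest were at ZNF875 (553 bp), ZNF175 (670 bp) and ZNF581 (695 bp). Width and strength did not go together in these examples, since ZNF175 reached a fold enrichment of 17.7 and ZNF480 reached 8.07. Across the 205 genes, fold enrichment and width had a Pearson correlation of -0.17 and a Spearman correlation of -0.25, given as a description across genes of 1 pooled list.

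The following genes have roles known from other work. ZNF91 had a fold enrichment of 15.3 and 1150 tags at its start (chr19:23394889-23395771), and ZNF93, a repressor of LINE-1 elements, had 13.5 and 1117 tags. ZNF274 had 14.9 and 993 tags. ZNF473, which acts in the processing of histone transcripts, had 14.0 and 2096 tags at an end that it shares with VRK3. All 4 lay between the quartiles of the set, 12.5 and 16.1. ZNF587 (14.0) and ZNF417 (16.5) encode repressors of endogenous retroviruses of the HERV-K group, and ZNF611 (13.9) encodes a protein that binds SVA elements. ZNF808, a repressor needed for pancreas development, had a fold enrichment of 9.09, and ZNF224, a repressor of the aldolase A gene, had 16.1. Values for ZNF43 (17.5), ZNF568 (15.2), ZNF649 (14.4), ZNF382 (12.3), ZNF507 (12.1), ZNF428 (11.4), ZNF154 (11.3), ZNF667 (9.48) and ZNF581 (8.80) ran from the upper to the lower part of the range. ZNF257, ZNF296, ZNF534, ZNF541 and ZNF558 had no summit within 1 kb of an end or a listed start. ZNF541 is a gene of male meiosis, and ZNF296 and ZNF534 are known from pluripotent cells.

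The members were then ordered along the chromosome. Chaining genes across gaps of at most 500 kb, and keeping chains of at least 8 genes, gave 8 clusters with 222 members, and 24 members were scattered. In clusters 2, 4, 7 and 8 every member had a summit at an outer end or a listed start. These were 25 of 25 in cluster 2 (ZNF653 to ZNF791, chr19:11483429-12633834) and 26 of 26 in cluster 4 (ZNF565 to ZNF573, chr19:36182060-37779586). Likewise 16 of 16 had one in cluster 7 (ZNF628 to ZNF835, chr19:55476617-56671757) and 43 of 43 in cluster 8 (ZNF264 to ZNF446, chr19:57191500-58489533). The other clusters held members without one. The counts were 35 of 39 in cluster 6 (ZNF175 to ZNF331, chr19:51571283-53580269) and 21 of 23 in cluster 5 (ZNF575 to ZNF180, chr19:43530835-44500522). They were 10 of 13 in cluster 1 (ZNF414 to ZNF846, chr19:8509678-9786160) and 28 of 37 in cluster 3 (ZNF101 to ZNF254, chr19:19668153-24129968). Of the scattered members, 20 of 24 had such a summit. By this measure, chosen after seeing the data, the share was 91.1% over all zinc finger genes (224 of 246). Over the other coding genes of the chromosome it was 62.4% (752 of 1205). In the 4 clusters with every member accessible, the lower interval bound ran from 80.6% (cluster 7) to 91.8% (cluster 8). With outer ends alone the shares of the clusters ran from 75.7% (28 of 37, cluster 3; interval 59.9 to 86.6%) to 93.8% (15 of 16, cluster 7; interval 71.7 to 98.9%), and these intervals overlap.

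**Figure D3:**
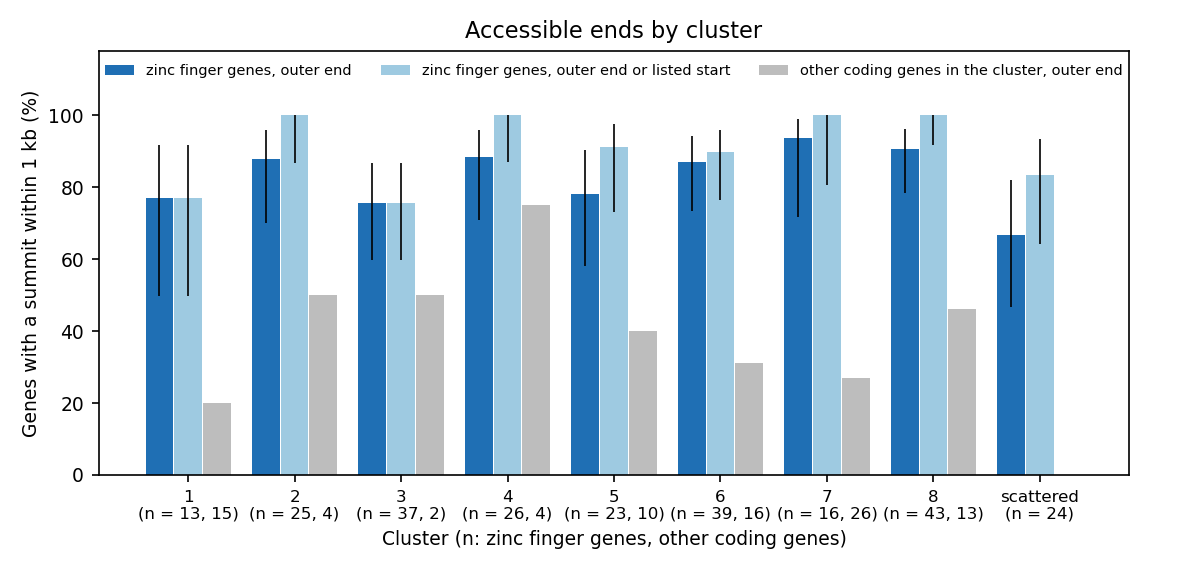
Share of genes (y axis, %) with a summit within 1 kb of an outer end (dark blue) or of an outer end or listed start (light blue) for zinc finger genes in each cluster and for the scattered genes, with Wilson 95% intervals, and the outer-end share of the other coding genes in the cluster span (grey; no interval is drawn). Light blue bars reach 100% in clusters 2, 4, 7 and 8, and the grey bar is below the dark blue bar in all 8 clusters.

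Other coding genes lying within the cluster spans were accessible less often than their zinc finger neighbours, with a summit at an end of 31 of 90 (34.4%, interval 25.4 to 44.7%). The share of all zinc finger genes was 48.9 points higher (interval 37.4 to 58.8 points). Some of the 90 belong to tissue-restricted families, such as NLRP genes in cluster 7 and OR2Z1 in cluster 1. Without such families and other zinc finger genes, the other genes of the whole chromosome had a share of 66.6%, and the difference was 16.8 points. That exclusion was not run inside the clusters. Cluster 3 was the sparsest, with 50 intervals over 4.46 Mb (11.2 per Mb), where cluster 8 had 44.7 per Mb. Its 28 accessible ends had a median fold enrichment of 16.2, the highest of the 8 clusters, and a median of 1192 tags. The lowest cluster median was 10.6, in cluster 7.

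**Figure D4:**
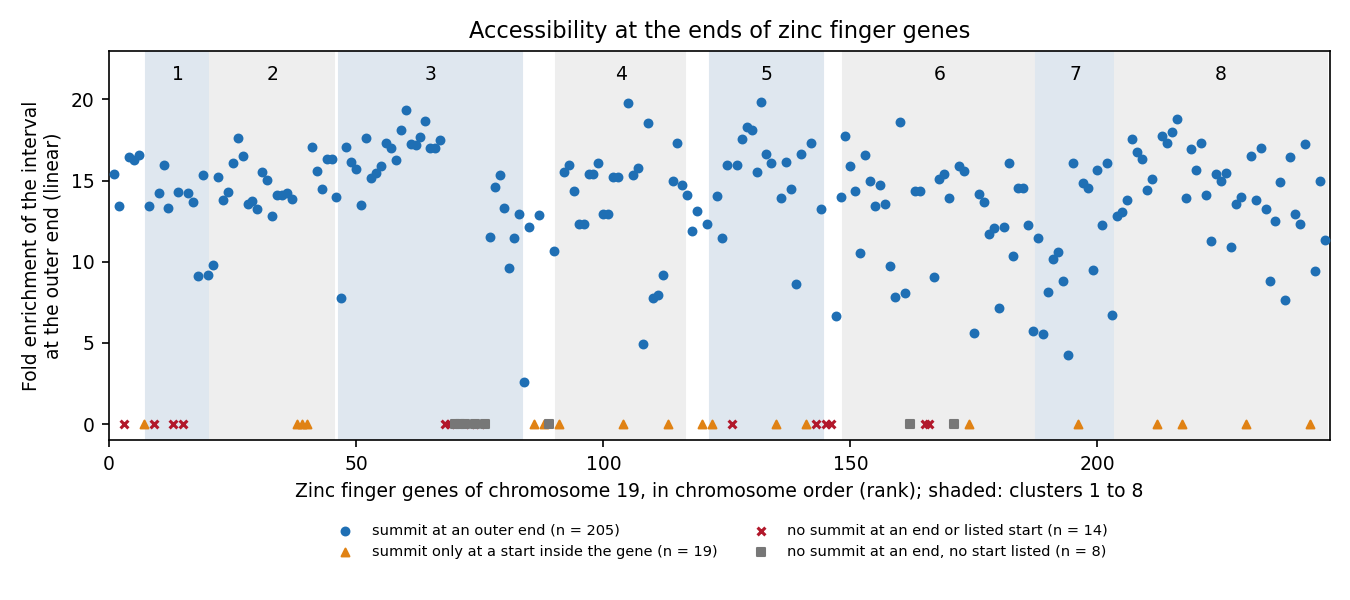
Fold enrichment (y axis, linear) of the interval at the outer end of each zinc finger gene, in chromosome order (x axis, rank), with clusters 1 to 8 shaded. Blue points are the 205 genes with a summit at an outer end; genes with no interval there are drawn at 0 as orange triangles (19, summit at a start inside the gene), red crosses (14, none at any listed start) and grey squares (8, no start listed), and a run of crosses and squares stands out in cluster 3.

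Of the 41 genes with no summit at an outer end, 19 had one at a listed start inside the annotated gene. These were ZNF358, ZNF563, ZNF442, ZNF799, ZNF302, ZNF599, ZNF565, ZNF420, ZNF540, ZNF574, ZNF575, ZNF225, ZNF112, ZNF320, ZNF444, ZNF749, ZNF550, ZNF814 and ZNF324B. The nearest summit was 2 to 163 bp from the start, and the 19 intervals had a median fold enrichment of 15.1 (range 7.77 to 18.97) and a median of 1160 tags. The medians at accessible outer ends were 14.5 and 924 tags. On the inner side of the 1 kb limit the nearest genes were ZNF114 (939 bp) and ZNF101 (593 bp), and on the outer side ZNF302 (1042 bp) and ZNF358 (1526 bp), both of which were accessible at an inner start. Adding listed starts to outer ends gave 224 of 246 zinc finger genes (91.1%) and 752 of 1205 others (62.4%).

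The remaining 22 genes had no summit at an end or a listed start. For 14 of them a start was listed, namely ZNF556, ZNF558, ZNF177, ZNF560, ZNF208, ZNF257, ZNF492, ZNF723, ZNF404, ZNF229, ZNF296, ZNF541, ZNF534 and ZNF578. For 8 no start was listed, namely ZNF676, ZNF729, ZNF98, ZNF99, ZNF728, ZNF30, ZNF610 and ZNF600. Of the 22 genes, 3 held an interval inside the gene and 19 held none. ZNF30 held an inside interval with a fold enrichment of 16.3 (chr19:34926711-34927481). ZNF610 held one of 14.0 (chr19:52335855-52336907). ZNF600 held intervals of 6.45 and 15.9, the stronger one at an end of ZNF28.

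A single stretch of cluster 3 held 8 of these genes. No interval was listed from chr19:21852528-22882784, a gap of 1030.3 kb. All 8 coding genes in it were zinc finger genes: ZNF208, ZNF257, ZNF676, ZNF729, ZNF98, ZNF492, ZNF99 and ZNF723. The only longer gap on the chromosome, of 3305 kb, held no coding gene. The nearest summit was 461 kb from an end of ZNF98 and 434 kb from an end of ZNF729. ZNF43, at the near edge of the gap, had 1492 tags and a fold enrichment of 17.5 at its outer end. ZNF728, beyond the gap, was 72.0 kb from the nearest summit. ZNF558 lay as the single zinc finger gene in another gap, of 420.1 kb (chr19:8655080-9075175), with 4 other coding genes.

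The 4 genes of the gap with a listed start had promoters much like those of accessible neighbours. ZNF676, ZNF729, ZNF98 and ZNF99 had no listed start, so their promoters were not aligned. Promoters were aligned in pairs over their 300 bases, with 1 listed start per gene, the one nearest a summit. ZNF208 was 85.7% identical to ZNF91, ZNF257 82.1% to ZNF85, ZNF492 79.2% to ZNF431 and ZNF723 74.9% to ZNF493, and all 4 of these relatives were accessible. The median identity of each promoter to those of the other zinc finger genes had itself a median of 47.0%. The best match of each gene had a median identity of 56.2% over all 216 genes and 82.1% over the 29 of cluster 3, where 26 matched another gene at 70% or more. Such similarity bears on where reads can be placed, and how the authors treated reads with several matches is not given in the sources used here. Exact 31-base words found in the promoter of another coding gene made up 14.4% of those in the ZNF208 promoter, 7.78% for ZNF91, 2.22% for ZNF492, 1.85% for ZNF723 and 1.11% for ZNF257. The part of read placement in the gap was not tested.

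The contrast with other genes depended on gene length. Zinc finger genes were longer, with a median of 23.2 kb against 12.8 kb. Among genes of up to 10 kb, 27 of 28 zinc finger genes (96.4%) and 246 of 471 others (52.2%) had a summit at an outer end or a listed start. From 10 to 20 kb the shares were 95.8% (n = 71) and 59.4% (n = 335), and from 20 to 40 kb 89.6% (n = 106) and 73.5% (n = 238). Above 40 kb they were 82.9% (n = 41) and 82.0% (n = 161), with overlapping intervals of 68.7 to 91.5% and 75.3 to 87.2%. The shares of the zinc finger genes of chromosome 19 were lower in the longer classes and those of the other genes higher. ZNF-numbered genes of other chromosomes did not decline in this way. Their shares in the same classes were 93.9% (n = 33), 87.5% (n = 72), 90.3% (n = 72) and 93.1% (n = 87). All these shares count an outer end or a listed start, a measure chosen after seeing the data. With outer ends alone, 28 of 41 zinc finger genes of chromosome 19 above 40 kb were accessible (68.3%, interval 53.0 to 80.4%). The other genes of that class had the higher share, 122 of 161 (75.8%, interval 68.6 to 81.7%), and the intervals overlap.

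**Figure D5:**
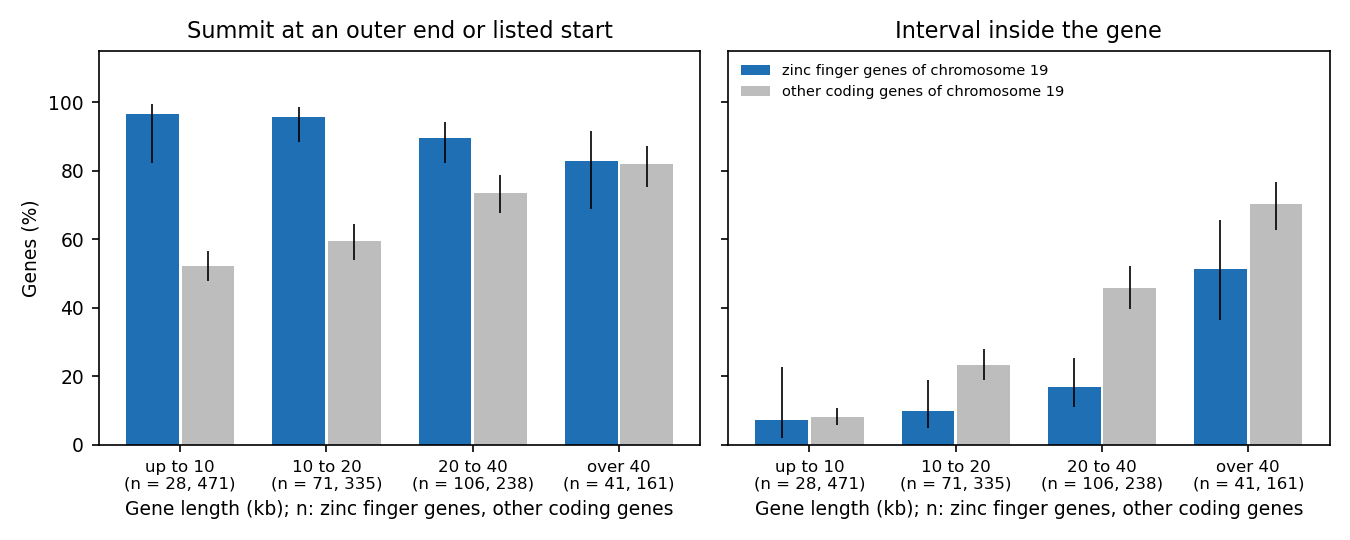
Share of genes (y axis, %) by gene length class (x axis, kb) with a summit at an outer end or listed start (left) and with an interval inside the gene (right), for zinc finger genes (blue) and other coding genes (grey) of chromosome 19. Error bars are Wilson 95% intervals; the left bars meet above 40 kb, at 82.9% and 82.0%, and in the right panel the grey bar is higher in each of the 4 classes.

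Accessible intervals inside the genes, over 1 kb from both outer ends, were sparse. They were found in 48 of 246 zinc finger genes (19.5%, interval 15.0 to 24.9%), with a background of 40.1% over all coding genes and 26.6% on chromosome 19. Among the other genes of the chromosome 338 of 1205 had one (28.0%, interval 25.6 to 30.7%), although those genes were shorter. The 83 intervals inside zinc finger genes came to 1.16 per 100 kb of gene, against 2.27 in the others, and to 0.927 without ZNF536. In genes of 20 to 40 kb the shares with an inside interval were 17.0% and 45.8%. ZNF-numbered genes of other chromosomes held one in 78 of 264 cases (29.5%, interval 24.4 to 35.3%), and theirs came to 1.68 per 100 kb. Many of the inside intervals of the chromosome 19 zinc finger genes marked further starts. Of the 83, 40 (48.2%) lay at a listed start of the same gene, with a median fold enrichment of 15.0, and 7 (8.43%) at an end of another coding gene. The other 36 (43.4%) lay at neither and had a median fold enrichment of 5.40. In the other genes of the chromosome 476 of 580 inside intervals (82.1%) lay at neither. Intervals of this last kind came to 0.501 per 100 kb in zinc finger genes and 1.86 in the others.

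ZNF536 stood apart from the rest of the set. It encodes a zinc finger protein of the brain that restrains neuronal differentiation, and it is a scattered gene of 488 kb (chr19:30225592-30713586). It had the lowest fold enrichment at an outer end, 2.59, from 431 tags over a background of 165.6 tags. A listed start inside the gene had 4.88 (chr19:30227326-30228238, 797 tags). ZNF536 held 21 inside intervals, of fold enrichment 3.21 to 7.36, the strongest at chr19:30682435-30683670. Without it, the inside intervals at no start or other gene's end numbered 16, in 14 genes. ZNF69 had the next most inside intervals, 5, of which 3 lay at ends of ZNF700 or ZNF763. ZNF331, an imprinted gene, held 3, all at listed starts, with fold enrichments of 15.4, 10.9 and 10.1, above the 5.72 at its outer end. No other zinc finger gene held more than 2, and ZNF599 and ZNF574 were among those with 2.

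Distal intervals, over 1 kb from an end of any coding gene and within 50 kb of an end of the gene in question, were also fewer. They may lie inside the gene. Zinc finger genes had a median of 1 and a mean of 1.44, against 2 and 2.70 for the other genes of the chromosome. No distal interval was found for 67 zinc finger genes (27.2%, interval 22.1 to 33.1%) and for 174 of the others (14.4%, interval 12.6 to 16.5%), and at least 1 was found near 85.6% of all coding genes and 83.4% of those on chromosome 19. Of the zinc finger genes 8 (3.25%) had 5 or more, with a background of 18.9% over all coding genes and 15.5% on chromosome 19. These were ZNF536 with 12, ZNF77 and ZNF358 with 6 each, and ZNF428, ZNF526, ZNF574, ZNF628 and ZNF835 with 5 each. ZNF-numbered genes of other chromosomes had a median of 2 and a mean of 2.32 (n = 264). Of those, 61 had no distal interval (23.1%, interval 18.4 to 28.6%), a share near that of the chromosome 19 set. A larger share than in that set had 5 or more, with 36 genes (13.6%, interval 10.0 to 18.3%).

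Many of the distal intervals of the chromosome 19 zinc finger genes lay at other annotated starts or ends. Of the 188 distinct ones, 42 (22.3%) were at a listed start of a coding gene, with a median fold enrichment of 14.1. At an end of a long noncoding RNA gene lay 29 (15.4%), with a median of 9.70, and at an end of a pseudogene 10 (5.32%), with 10.8. The remaining 107 (56.9%) had a median of 5.60. Around the other genes of the chromosome 79.2% of 881 distal intervals had no such annotation. The strongest near a zinc finger gene was at chr19:58097814-58099007, with a fold enrichment of 19.98 at a start of ZSCAN18. The next, with 19.85, was at chr19:36797031-36797881 by ZNF790-AS1. An interval of fold enrichment 19.55 and 1211 tags at chr19:20999637-21000507, inside the span of cluster 3, had no annotated gene end within 1 kb.

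Promoter words were counted on both strands in the 300-base promoters, over 268 listed starts of 216 zinc finger genes, 1280 starts of the other coding genes of the chromosome and 22198 coding starts in all. A match describes the letters and is not a binding site. CCAAT, the word bound by NF-Y, was in 50.0% of zinc finger gene starts, 35.6% of the others and 34.7% of all. CCGGAAGT, a word of ETS factors, was in 17.9%, 4.30% and 5.33%. GGGCGG, a word of SP factors, was in 64.9%, 65.9% and 56.3%, but among starts with a summit within 1 kb it was in 65.6% (interval 59.4 to 71.3%) at zinc finger genes and 80.5% (interval 77.6 to 83.2%) at the others of the chromosome. TATAAA was in 2.61%, 7.11% and 9.47%, and the E-box CAGATG in 14.9%, 13.4% and 12.2%. Among starts with a summit within 1 kb, CCAAT was in 50.8% at zinc finger genes and 40.3% at the others of the chromosome. CCGGAAGT was in 18.9% and 7.11% of these, TATAAA in 2.46% and 4.61%, and CAGATG in 14.8% and 9.47%. The intervals overlapped for TATAAA and CAGATG. ZNF-numbered genes of other chromosomes, over 289 starts, had CCAAT in 39.1%, CCGGAAGT in 12.1%, TATAAA in 5.54% and CAGATG in 8.65%. Median GC content was 60% at zinc finger gene starts and 64.3% at the other starts of the chromosome.

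The words followed the clusters. With 1 start per gene, CCAAT was in 28 of 29 promoters of cluster 3 and 22 of 24 of cluster 2, and in 28 of 40 of cluster 8. In clusters 4, 5 and 6 it was in 6 of 25, 4 of 19 and 9 of 32, which is 24%, 21.1% and 28.1%, and in clusters 1 and 7 in 4 of 12 and 5 of 14. The shares of clusters 4, 5 and 6 were below the 34.7% of all coding starts. That figure counts every listed start, while the cluster shares count 1 start per gene, the one nearest a summit. CCGGAAGT was in 23 of 40 promoters of cluster 8 (57.5%), among them the printed one of ZNF274, where it stands as its reverse complement, and in none of the 29 of cluster 3. Longer words were looked for after the sequences had been seen, as the 3 words of 12 letters that most zinc finger genes shared, without overlap among the 3. A lower share in other genes follows in part from that choice, so their counts are given as description only. CTGTCACTCAGG was in 23 of 216 zinc finger genes, 18 of them in cluster 3 and 5 in cluster 2. It was in 0 of 969 other genes of the chromosome and in 30 of 15842 coding genes. GTCCAATCAGGC, which contains CCAAT, was in 19, of which 18 were in cluster 3, and in 28 of all coding genes. Both words stand in the printed promoters of ZNF91 and ZNF208, and both were also in that of ZNF492, which had no summit. The word GGGAAATGTAGT was in 19 zinc finger genes, 9 of them in cluster 4 and 6 in cluster 5, in 5 of the 969 others and in 94 of 15842, all counted with 1 start per gene, the one nearest a summit. With any listed start counted, it was in 6 of the 969 others. All 19 of those zinc finger genes were accessible, next to 202 of all 216 (93.5%).

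The partners of KRAB proteins were accessible as well. Of 20 corepressor genes, 19 had a summit at an outer end, and UHRF1 had one at a listed start inside the gene. Over all coding genes the share with a summit at an outer end was 68.8%. The scaffold TRIM28, itself on chromosome 19, had a fold enrichment of 13.2 and 2087 tags, and SETDB1 had 15.8 and 1185 tags. MPHOSPH8, a subunit of the HUSH silencing complex, had the highest value of the 19, 16.7, and the chromatin remodeller CHD3 the lowest, 3.69. The median of the list was 13.1. Zinc finger genes of chromosome 19 with other symbols were accessible at an end in 8 of 15 cases. ZSCAN18 had a summit at an inner start, and ZSCAN5B and ZSCAN4 had none at an end or a listed start. ZFP28, ZIM2, PEG3 and ZIM3 had none at an end, and no start was listed for them. An inside interval was held by ZFP28 (1) and ZSCAN4 (1).

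The neuronal label was checked against marker genes. A summit at an outer end or a listed start was present for 14 of 14 pan-neuronal genes, including MAP2 and MAPT. Over all coding genes 68.8% had a summit at an outer end and 72.3% of those with a listed start had one there. A summit was present for 5 of 10 pluripotency genes (LIN28A, LIN28B, DNMT3B, PRDM14 and DPPA4, but not POU5F1 or NANOG). It was present for 7 of 11 glial genes, a share near that background, among them OLIG1, OLIG2, S100B and MBP but not GFAP or SOX10. OLIG1, OLIG2 and S100B had no listed start, so for them the summit is known only to lie at an outer end. Of 10 genes of non-neural tissues 1 had a summit.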

How the data were processed

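ATAC-seq of 3 replicates was deposited as 1 peak list, named in the labels as the optimal set by irreproducible discovery rate; its genome build is hg38 per the submitters' processing notes. The aligner, peak caller, versions and filters are not given in the sources used here. The authors deposited, per summit, a fold enrichment (a linear ratio), the −log10 p and −log10 q, and a score. Tag counts were recovered from fold and −log10 p as whole numbers, to within 0.00714 tags, with fold as (tags + 1)/(background + 1) and p as a Poisson upper tail. The depth of each replicate is unknown.

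Gene ends and listed starts came from RefSeq tables for GRCh38.p14. A summit counted within 1 kb of an end. Shares have Wilson 95% intervals and medians order-statistic 95% intervals. Python 3.11.15, numpy 2.4.6, pandas 2.3.3, scipy 1.17.1 and matplotlib 3.10.9 were used, and the code was tested on simulated data.

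The members and gene lists were chosen with earlier results of these data known. Genes named are those with the 8 highest and 4 lowest fold enrichments, the 5 widest and 3 narrowest intervals, summits at both ends, the most inside or distal intervals, no summit at an end, a known role, or the 2 nearest to the 1 kb limit on each side. Other neighbours are named for location. Alternatives were other end windows, a score of at least 830, the strongest summit alone, overlap in place of the summit, isolated ends, starts alone, other comparison genes and other distal and inside limits. Protein features, which had been planned, were not used here.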

Additional observations from a re-analysis of the deposited data

How the results depend on the processing

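Of 84 recomputed values over 14 settings, 66 stayed within the 95% interval of the reported value, 18 did not, and 0 changed the sign of the difference in shares. The share of accessible zinc finger genes moved only when any listed start was added to the outer ends, to 91.1%, with a difference of 28.7 points, a setting chosen after seeing the data. Their median number of distal intervals was 0 within 20 kb and 2 within 100 kb, against 1 and 5 for the other genes. The other genes' accessible share was 56.5% with a 500 bp window, 65.6% with 2 kb, 52.4% for ends over 1 kb from other coding genes (difference 31.3 points), 66.6% without other zinc finger and tissue-restricted families (difference 16.8 points) and 34.4% inside the clusters (difference 48.9 points). Their median fold enrichment was 10.0 for isolated ends and 12.9 inside the clusters. Their share with an inside interval was 30.9% without those families and 24.4% beyond 2 kb. The cause of these shifts was not tested. No paired analysis was possible because the 3 replicates are 1 group with no value per sample, and leaving out a replicate was likewise not possible. The genes that share starts or near-identical sequence are not independent, and depth per replicate is unknown, so an absent summit means not detectable in this list.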
